A study of Mus musculus with 8 samples.

Results

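Immediate early transcription factors are described here by 10 genes, *Fos*, *Fosb*, *Fosl2*, *Jun*, *Junb*, *Jund*, *Egr1*, *Egr2*, *Atf3* and *Nr4a1*, found by their symbols among the 46040 genes of a count table. All 10 passed a filter on low counts, which kept 13542 genes that reached 1 CPM (a count scaled to the library's total) in 2 or more libraries. The table holds RNA sequencing libraries of the left ventricles (LVs) of 8 C57BL/6 mice with angiotensin II (angII) induced left ventricular hypertrophy (LVH), 4 libraries in each group. The mice were males, 5 to 7 months old at the start, infused with angII at 0.1 mg/kg/h through osmotic minipumps and sampled on day 14, so that only survivors were sequenced. Mice of 1 group lacked the tyrosine kinase (TK) domain of VEGFR-1, the receptor encoded by *Flt1*, in every cell that uses the gene, and littermates served as controls. Both groups received angII, and untreated hearts were not analysed here, so the response to angII itself is not among the comparisons.

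The labels disagree on genotype. For all 8 libraries the genotype tag and the library name give 1 genotype while the title gives the other. The library names set the groups here, which are termed control-tagged and TK-deficient-tagged. Differences are TK-deficient-tagged minus control-tagged and change sign if the titles hold. The library names also mention cardiomyocytes, whereas the labels give LV tissue as the source, and in bulk tissue fewer cells of a type and less RNA per cell cannot be told apart. The 6 cardiomyocyte markers summed to between 40757 and 66926 normalized CPM per library (CPM after TMM scaling, which adjusts for library composition). Markers of other cell types were detected, and some lists ran lower in the TK-deficient-tagged libraries, though the summed levels of the groups overlapped. The endothelial markers summed to 1288 to 1617 normalized CPM in the control-tagged and 1174 to 1303 in the TK-deficient-tagged libraries. By edgeR's quasi-likelihood test 3 of 6 had an unadjusted p under 0.05, beside 8.96% of all genes. Mural markers summed to 1099 to 1549 and 830.4 to 1121 normalized CPM, with 3 of 6 at such a p, and leukocyte markers to 379.5 to 506 and 256 to 390.04, with 2 of 7. Fibroblast markers summed to 1055 to 1548 and 567 to 1316 normalized CPM, with 0 of 6 at such a p, and 2 of 6 cardiomyocyte markers had one. Of the adipocyte markers *Plin1* and *Lep* were at 0 in all libraries, as were *Myh2* and *Myh4* of the skeletal muscle list, and the 4 atrial markers summed to between 503 and 1431 normalized CPM. Libraries held between 11449137 and 16239670 counts.

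Immediate early genes are transcribed within minutes of a stimulus, without new protein synthesis, because their activators (serum response factor with its ternary complex partners, and CREB) already sit in the cell and are switched on by kinases. Proteins of the Fos and Jun families pair through leucine zippers to form AP-1, which binds DNA and drives later genes. Egr1 and Egr2 are zinc finger factors, Atf3 is a stress-induced leucine zipper factor that mostly represses, and Nr4a1 is an orphan nuclear receptor. In the heart these genes are known to rise quickly and briefly after pressure overload, angII and ischaemia.

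RefSeq promoter windows of 300 bases, most of them before a start site (build GRCm38.p6), were found for 9 of the 10 genes, all but *Egr1*. The core of the cAMP response element to which CREB binds, TGACG on either strand, was in the windows of 6 of these 9 genes, against 20.8% of all 32851 windows. This core was added to the search after the windows had been seen. Their 130 bases before the start site are shown, 5′ to 3′ on the gene's strand, because these 6 windows hold the core, which those of *Fosl2*, *Jun* and *Jund* do not. For *Jund* these 130 bases (chr8:70697609-70697738, plus strand) lie before the gene's start in the annotation used for coordinates, 70698949. The window does not reach that start, so the sequence next to it was not searched for any of the sites. Capitals mark TGACG or its reverse complement CGTCA, the Egr site GCGNGGGCG or its reverse complement, the CArG box of serum response factor, and TATAAA.
Fos (chr12:85473760-85473889, plus strand): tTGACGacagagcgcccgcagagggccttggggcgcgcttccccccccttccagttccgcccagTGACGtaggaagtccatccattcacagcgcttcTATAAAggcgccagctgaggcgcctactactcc
Fosb (chr7:19310046-19310175, minus strand): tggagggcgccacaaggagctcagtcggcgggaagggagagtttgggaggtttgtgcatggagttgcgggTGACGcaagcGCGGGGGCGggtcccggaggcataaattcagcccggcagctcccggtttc
Junb (chr8:84978749-84978878, minus strand): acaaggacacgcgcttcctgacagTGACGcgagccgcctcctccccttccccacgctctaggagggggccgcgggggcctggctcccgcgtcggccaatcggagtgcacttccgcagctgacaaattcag
Egr2 (chr10:67537739-67537868, plus strand): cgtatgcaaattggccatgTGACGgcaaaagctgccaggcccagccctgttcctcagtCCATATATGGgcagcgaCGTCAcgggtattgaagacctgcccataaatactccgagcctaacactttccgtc
Atf3 (chr1:191183334-191183463, minus strand): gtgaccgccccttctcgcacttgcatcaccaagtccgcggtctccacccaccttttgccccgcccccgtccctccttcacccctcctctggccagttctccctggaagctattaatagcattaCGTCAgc
Nr4a1 (chr15:101266716-101266845, plus strand): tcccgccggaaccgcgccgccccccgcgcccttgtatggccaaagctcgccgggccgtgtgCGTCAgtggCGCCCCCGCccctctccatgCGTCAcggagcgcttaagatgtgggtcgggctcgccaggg

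The Egr site was in the windows of 3 of 9 genes (*Fosb*, *Fosl2* and *Nr4a1*), against 5.55% of all windows, and the CArG box in 1 of 9 (*Egr2*), against 1.63%. TATAAA was in the windows of *Fos* and *Junb*, against 13.6%, the match of *Junb* lying after the start site and outside the stretch shown. The whole response element TGACGTCA, which includes the core, the AP-1 site TGANTCA and the Nr4a1 site AAAGGTCA were in 0 of 9, against 1.79%, 7.81% and 1.51%. *Egr2* has 5 windows and counts as holding a site if any of them does, and a match of letters says nothing of binding.

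Per kilobase of exon, *Jund* was the most abundant of the 10 genes. Its level was 71.3 ± 8.51 normalized CPM per kilobase (SD, n = 8 libraries), with every library above every library of the other 9 genes. *Jun* followed with 25.5 ± 3.54, then *Nr4a1* with 20.8 ± 5.46 and *Atf3* with 19.9 ± 10.1 normalized CPM per kilobase. The ranges of these 3 genes overlapped, and *Atf3* spanned from 4.82 to 30.2. *Junb* was at 10.2 ± 2.77 and overlapped *Atf3* and *Nr4a1*, but lay wholly below *Jun* and above *Fosl2*. *Fosl2* (4.14 ± 1.02), *Egr1* (3.41 ± 1.16) and *Fos* (2.27 ± 1.06 normalized CPM per kilobase) overlapped each other. *Egr2* (0.557 ± 0.251) and *Fosb* (0.293 ± 0.285) had the lowest means and overlapped. They reached 1.00 and 0.962 at most, which is above the lowest library of *Fos* (0.830), so both overlapped *Fos* as well. Lengths are of all annotated exons of a gene joined, so genes with many annotated isoforms come out lower.

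**Figure D1:**
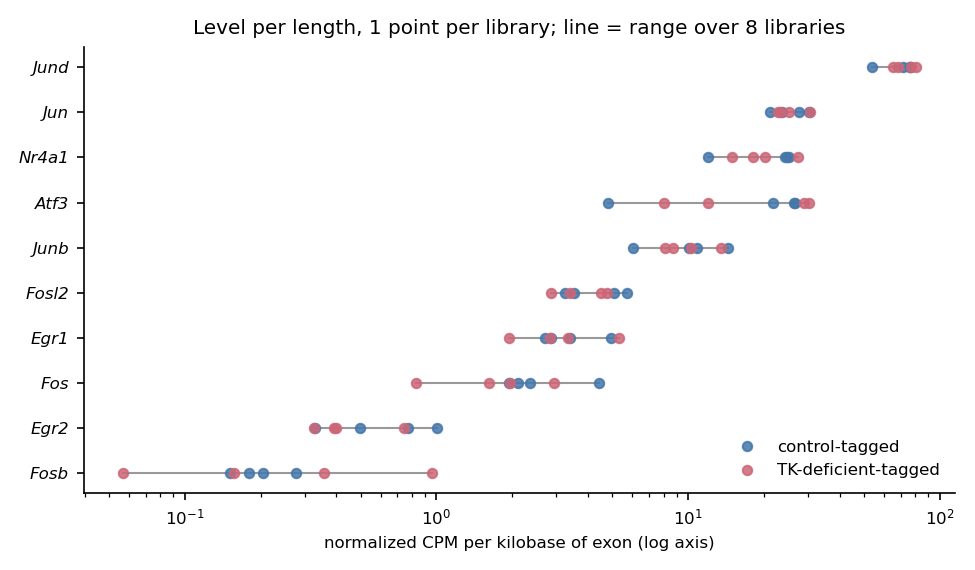
Level of each gene in normalized CPM per kilobase of exon (log axis), with 1 point per library, blue for control-tagged and red for TK-deficient-tagged, and a line over the range of all 8 libraries. *Jund* stands above all others, and *Atf3* (4.82 to 30.2) and *Fosb* (0.0569 to 0.962) have long ranges in which both colours mix.

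The first question was whether the mice without the TK domain differed from controls in these factors. No difference between the groups was detected in any of them. By edgeR's quasi-likelihood test, 0 of 10 genes were called at a false discovery rate (FDR) under 0.1 and a change of at least 1.5-fold (0.585 on the log2 scale), where the test called 0.00738% of all genes. The likelihood ratio test called 0 of 10 too, against 0.391% of all genes, as did DESeq2, against 32 of 10916 genes. At an unadjusted p under 0.05 the count was 0 of 10, against 8.96% of all genes, and the groups overlapped in all 10, while they did not overlap in 4.98% of all genes. The log2 fold change was below 0 in 8 of 10 genes, against 50.3% of all genes, and its median was −0.04, beside −0.001 over all genes. Exact 2-sided permutation tests of single genes gave p from 0.286 to 0.971, where 4 libraries against 4 allow 0.0286 at the lowest. How firmly a change is bounded varied between genes. For *Jun*, *Junb* and *Jund* the 95% interval of the difference lay within 1.5-fold in both directions, and for the other 7 it did not.

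**Figure D2:**
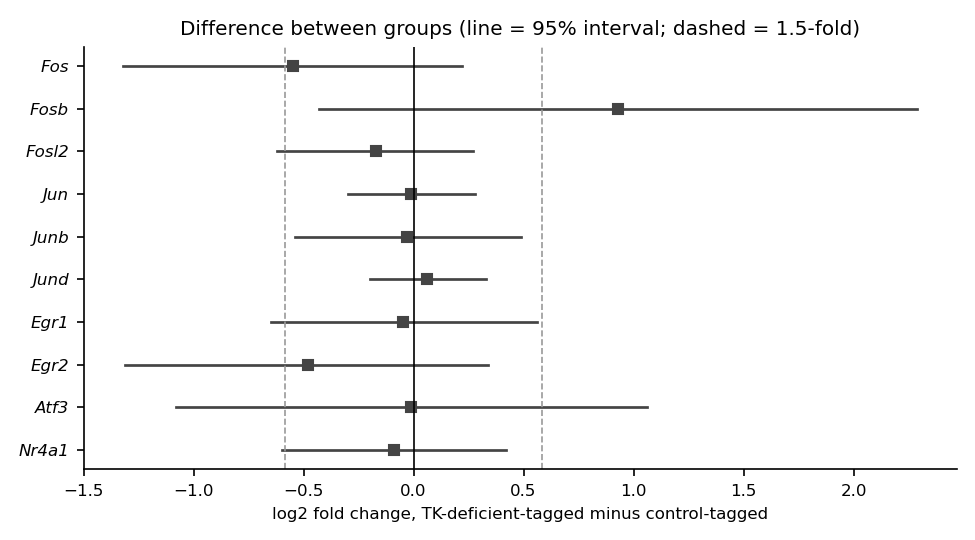
Log2 fold change of each gene between the groups, with its 95% interval from the quasi-likelihood fit. Every interval includes 0, those of *Jun*, *Junb* and *Jund* stay inside the dashed lines at 1.5-fold, and that of *Fosb* reaches from −0.43 to 2.29.

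*Fos* (ENSMUSG00000021250, chromosome 12, 85473890 to 85477273, plus strand) encodes the founding partner of Jun in AP-1. The 4 control-tagged replicates, in order of number, had 10.4, 5.52, 4.57 and 4.96 normalized CPM. The 4 TK-deficient-tagged replicates had 6.91, 1.95, 3.79 and 4.62. Control-tagged replicate 1 was highest and TK-deficient-tagged replicate 2 lowest, and the other 6 libraries were mixed between the groups. The log2 fold change was −0.55 (SE 0.35, 95% interval −1.32 to 0.22, FDR = 0.672 from edgeR's quasi-likelihood test). Without control-tagged replicate 1 it was −0.21, and without TK-deficient-tagged replicate 1 it was −0.87, with an unadjusted p of 0.0324 in the same edgeR test.

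*Fosb* (ENSMUSG00000003545, chromosome 7, 19302696 to 19310051, minus strand), a Fos protein whose spliced short form is known to persist after repeated stimuli, was covered by 4 to 76 reads per library. Control-tagged replicates 1 to 4 had 1.72, 0.944, 1.28 and 1.12 normalized CPM. TK-deficient-tagged replicates 1 to 4 had 0.975, 0.355, 6.00 and 2.23. The TK-deficient-tagged group therefore held both the lowest library and the highest, 16.9 times apart, while the control-tagged libraries lay close together. The log2 fold change of 0.93 (SE 0.62, FDR = 0.689) rested on TK-deficient-tagged replicate 3, and without this library it was −0.07.

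*Fosl2* (ENSMUSG00000029135, chromosome 5, 32135801 to 32157842, plus strand) encodes Fra-2, a Fos protein known for slower and longer induction than Fos. It was at 55.2, 34.0, 31.4 and 49.3 normalized CPM in the control-tagged and 46.3, 27.5, 32.9 and 43.8 in the TK-deficient-tagged replicates 1 to 4. Each group held 2 higher and 2 lower libraries, with none between 34.0 and 43.8, and the difference was −0.17 on the log2 scale (SE 0.20, FDR = 0.835). It was −0.02 without control-tagged replicate 1 and −0.30 without control-tagged replicate 3.

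*Jun* (ENSMUSG00000052684, chromosome 4, 95049034 to 95052222, minus strand) encodes the main AP-1 partner, which also pairs with itself. It was at 75.4, 96.2, 67.6 and 87.9 normalized CPM in the control-tagged and 97.8, 80.2, 72.6 and 73.9 in the TK-deficient-tagged replicates 1 to 4. The libraries lay within 1.45-fold of each other. Group means of 81.8 ± 12.7 and 81.1 ± 11.6 (SD, n = 4) differed by −0.01 on the log2 scale (SE 0.13, 95% interval −0.30 to 0.28, FDR = 0.987 from edgeR's quasi-likelihood test).

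*Junb* (ENSMUSG00000052837, chromosome 8, 84974484 to 84978718, minus strand), a weaker activator than Jun that can oppose it, was at 33.2, 25.0, 13.9 and 23.2 normalized CPM in the control-tagged replicates 1 to 4. In the TK-deficient-tagged replicates it was at 31.1, 18.6, 19.99 and 23.7. Replicate 1 was the highest of each group, and the log2 fold change was −0.03 (SE 0.23, FDR = 0.982). *Junb* shares 173 exon bases with *Prdx2* on the opposite strand, which had up to 6092 counts, and since the use of strand in the counting is not given in the sources used here, reads there could be assigned either way or dropped.

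*Jund* (ENSMUSG00000071076, chromosome 8, 70698949 to 70700616, plus strand) encodes the Jun protein that is present in resting cells and is known to restrain growth of cardiomyocytes. Control-tagged replicates 1 to 4 held 128, 119.8, 90.1 and 127 normalized CPM and the TK-deficient-tagged 128, 109, 114 and 134. Apart from control-tagged replicate 3, all libraries lay between 109 and 134. The groups differed by 0.06 on the log2 scale (SE 0.12, 95% interval −0.20 to 0.33, FDR = 0.906). Antisense RNAs share 877 exon bases with *Jund* and 232 with *Jun*, with at most 15 and 17 counts in any library.

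**Figure D3:**
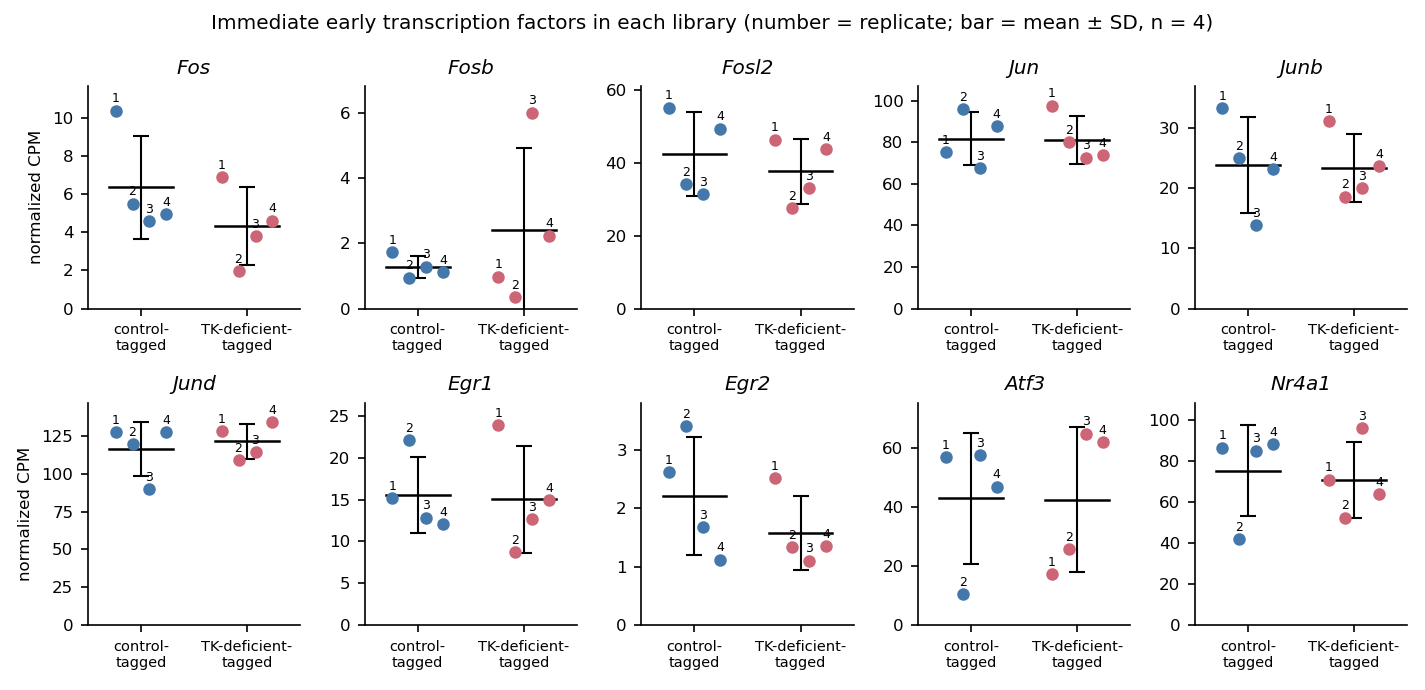
Normalized CPM of the 10 genes in each library, numbered by replicate, with the mean and SD (n = 4) of each group in black. The groups overlap in every panel, control-tagged replicate 1 tops *Fos*, *Fosl2* and *Junb*, TK-deficient-tagged replicate 3 tops *Fosb*, *Atf3* and *Nr4a1*, and the lower SD bar of *Fosb* in the TK-deficient-tagged group runs past 0.

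*Egr1* (ENSMUSG00000038418) is a factor that serum response factor and its partners switch on directly. It stood at 15.2, 22.1, 12.8 and 12.1 normalized CPM in the control-tagged and at 23.9, 8.70, 12.6 and 14.9 in the TK-deficient-tagged replicates 1 to 4. The highest and the lowest library were both TK-deficient-tagged. The log2 fold change was −0.05 (SE 0.28, FDR = 0.973) and moved between −0.36 and 0.17 as each library was left out.

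*Egr2* (ENSMUSG00000037868, chromosome 10, 67535475 to 67542188, plus strand), a related zinc finger factor best known from Schwann cells and lymphocytes, was covered by 14 to 47 reads per library. It was at 2.62, 3.41, 1.68 and 1.12 normalized CPM in the control-tagged and 2.52, 1.33, 1.11 and 1.36 in the TK-deficient-tagged replicates 1 to 4. The 2 highest libraries were control-tagged, but so was the second lowest. The log2 fold change was −0.48 (SE 0.38, 95% interval −1.31 to 0.34, FDR = 0.732). It was −0.20 without control-tagged replicate 2 and −0.80 without TK-deficient-tagged replicate 1.

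*Atf3* (ENSMUSG00000026628, chromosome 1, 191170296 to 191218039, minus strand) had nearly the same mean in both groups and some of the widest differences within them. Control-tagged replicates 1 to 4 had 57.0, 10.4, 57.6 and 47.0 normalized CPM. TK-deficient-tagged replicates 1 to 4 had 17.2, 25.7, 65.02 and 62.2. In each group some libraries were low (10.4 in the control-tagged, 17.2 and 25.7 in the TK-deficient-tagged) and the others lay between 47.0 and 65.02, a gap between 25.7 and 47.0 that no library filled. Means of 43.0 ± 22.3 and 42.5 ± 24.6 (SD, n = 4) differed by −0.01 on the log2 scale, with a wide interval from −1.08 to 1.06 (FDR = 0.996 in the edgeR fit). The library lowest in *Atf3*, control-tagged replicate 2, also had the lowest sum of cardiomyocyte markers (40757 normalized CPM) and the highest of fibroblast markers (1548 normalized CPM). The next lowest in *Atf3*, TK-deficient-tagged replicates 1 and 2, had cardiomyocyte sums of 55525 and 57977, inside the range of the libraries high in *Atf3* (50233 to 66926). The part of cell makeup in the levels of *Atf3* was not tested.

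*Nr4a1* (ENSMUSG00000023034, chromosome 15, 101254269 to 101274795, plus strand) was at 86.5, 42.0, 85.1 and 88.2 normalized CPM in the control-tagged replicates 1 to 4. In the TK-deficient-tagged replicates it was at 71.0, 52.4, 96.1 and 63.8. Its lowest and highest library, control-tagged replicate 2 and TK-deficient-tagged replicate 3, were also those of *Atf3*. Between the groups it differed by −0.09 on the log2 scale (SE 0.23, FDR = 0.933).

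The second question was how far these genes vary between mice of the same group. The pooled SD of log2 normalized CPM within groups was 0.48 at the median of the 10 genes and 0.21 at the median of all 13542 genes. It was above the median of all genes in 9 of 10 genes and above their 90th percentile of 0.46 in 5 of 10, namely *Fosb*, *Atf3*, *Fos*, *Egr2* and *Egr1*. *Fosb* (SD 1.11) and *Atf3* (SD 1.07) stood at percentiles 99.7 and 99.6 of all genes, *Fos* (SD 0.64) at 96.9 and *Egr2* (SD 0.57) at 95.3. At the other end, *Jun* (SD 0.21) and *Jund* (SD 0.20) varied about as much as a typical gene, at percentiles 51.0 and 45.9.

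The spread can be set beside the error that counting alone gives. *Atf3* had a mean of 557 counts, for which counting alone gives a coefficient of variation of 4.24%, and it varied by 50.8% over the 8 libraries. For *Nr4a1* the values were 3.25% and 26.2%, for *Fosl2* 4.40% and 24.7%, and for *Fos* 12% and 46.5%. For *Egr2* counting alone gives 20.1%, against 45.1% observed. For *Fosb* the values were 20.6% and 97.2%, and its SD within groups was 0.33 in the control-tagged and 1.53 in the TK-deficient-tagged libraries, a difference in spread that was not tested and that includes the library with 4 reads.

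**Figure D4:**
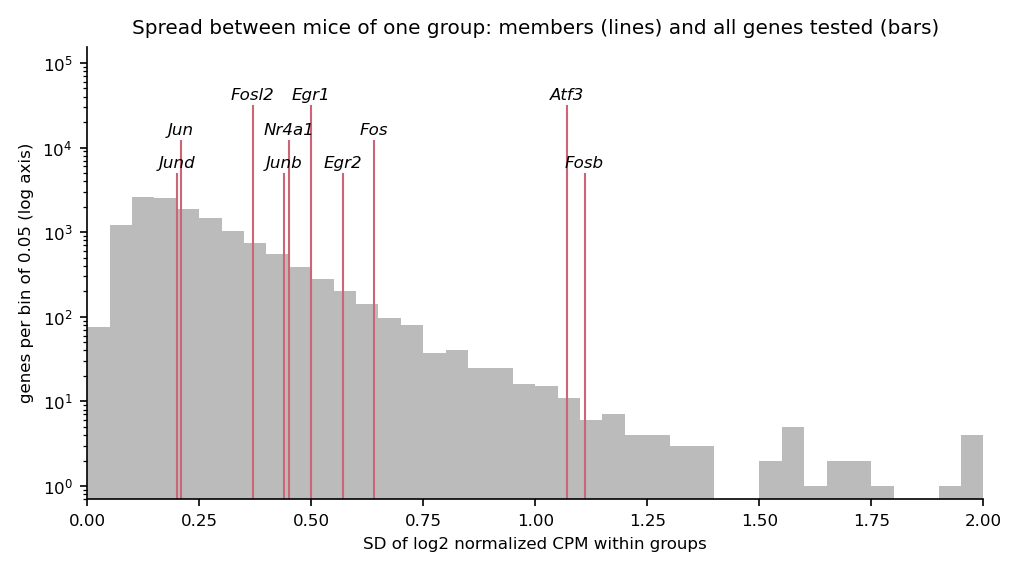
Number of genes (log axis) by the pooled SD of log2 normalized CPM within groups, in bins of 0.05, for all 13542 genes tested, with red lines at the 10 genes (the 3 genes with an SD of 2 or more are in the last bin). *Jun* and *Jund* lie at the bulk of all genes, and *Atf3* (1.07) and *Fosb* (1.11) far out in the tail.

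The genes did not rise and fall as a single block between mice. Over the 45 pairs of genes, the median Pearson's r of log2 normalized CPM over the 8 libraries was 0.26, and 0.29 for deviations from the group means, with 33 pairs above 0 and 12 below. The median was 0.11 without TK-deficient-tagged replicate 2 and 0.39 without TK-deficient-tagged replicate 3. Each pair was tested by exact permutation over all pairings of the libraries, and 7 pairs had a p under 0.05. None of the 45 held after Benjamini-Hochberg adjustment, the lowest adjusted value being 0.151 for r and 0.103 for Spearman's rho, so the relations below are descriptions of these 8 mice.

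Among the Fos and Jun genes, r ranged from −0.46 for *Fosb* and *Jun* to 0.86 for *Junb* and *Jund*. *Fosb* gave r of 0.26 with *Fos* (rho −0.02) and 0.03 with *Junb*. *Fos* gave 0.19 with *Jun* (rho 0.52), 0.42 with *Jund* and 0.69 with *Egr1*. Without the 2 libraries farthest from the median of *Fos*, its r was −0.80 with *Fosb* and 0.82 with *Jun*. *Fos* and *Junb* gave r = 0.70 (exact permutation p = 0.0571, adjusted 0.288) and rho = 0.90 (exact permutation p = 0.00456, adjusted 0.103). *Fosl2* gave r of 0.78 with *Junb* (exact permutation p = 0.0208, adjusted 0.157) and 0.73 with *Jund* (exact permutation p = 0.0244, adjusted 0.157). For *Junb* and *Jund* r was 0.86 (exact permutation p = 0.00528, adjusted 0.151) and rho 0.79 (exact permutation p = 0.0279, adjusted 0.157), with r = 0.88 within groups. Without the 2 libraries farthest from the median of *Junb*, r was 0.71. For *Fos* and *Fosl2* r was 0.81 (exact permutation p = 0.00727, adjusted 0.151) and rho 0.86 (exact permutation p = 0.0107, adjusted 0.121). Without control-tagged replicate 1 and TK-deficient-tagged replicate 2, the 2 libraries farthest from the median of *Fos*, r was 0.49. Leaving out extremes narrows the range of a gene, so a lower r cannot show whether a relation rested on these libraries. *Egr1* and *Egr2* gave r = 0.77 (exact permutation p = 0.0221, adjusted 0.157) and rho = 0.81 (exact permutation p = 0.0218, adjusted 0.157), and 0.45 without the 2 libraries farthest from the median of *Egr1*.

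For *Atf3* and *Nr4a1* r was 0.79 (exact permutation p = 0.0190, adjusted 0.157), rho 0.62 (exact permutation p = 0.115, adjusted 0.323), and r = 0.72 without the 2 libraries farthest from the median of *Atf3*. For *Atf3* and *Fosb* r was 0.60 (exact permutation p = 0.124, adjusted 0.378) and rho 0.90 (exact permutation p = 0.00456, adjusted 0.103), with r = 0.76 without 2 libraries. *Atf3* and *Jun* ran in opposite directions, with r = −0.85 (exact permutation p = 0.0100, adjusted 0.151) and rho = −0.88 (exact permutation p = 0.00724, adjusted 0.109), and r = −0.51 without control-tagged replicate 2 and TK-deficient-tagged replicate 1. For *Fos* and *Atf3* r was 0.02 (exact permutation p = 0.968, adjusted 0.968) and rho −0.40 (exact permutation p = 0.327, adjusted 0.566). Without control-tagged replicate 1 and TK-deficient-tagged replicate 2, the 2 libraries farthest from the median of *Fos*, r was −0.78.

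**Figure D5:**
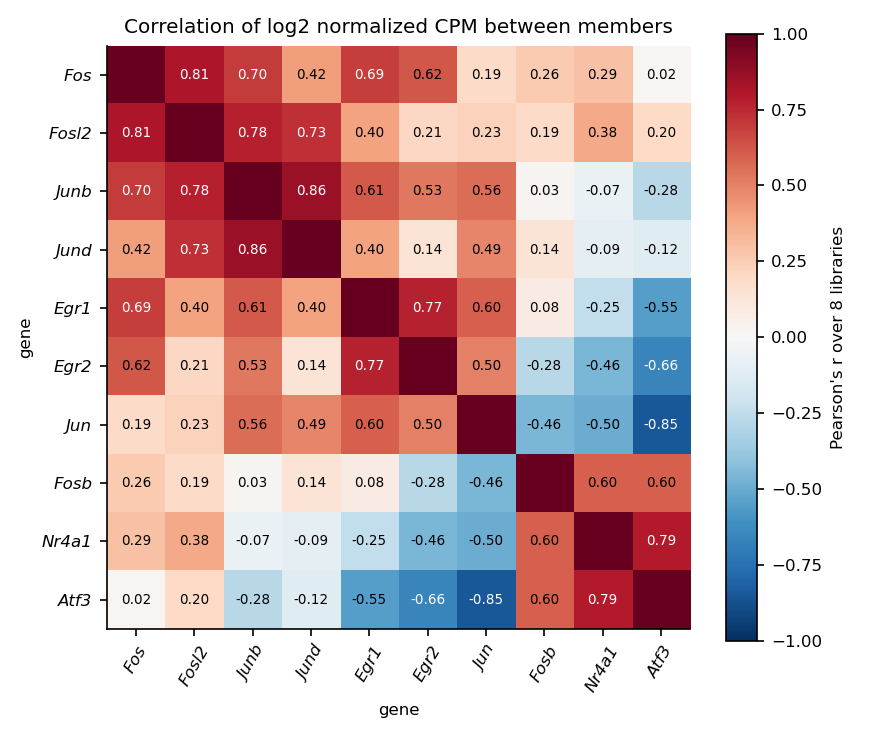
Pearson's r of log2 normalized CPM over the 8 libraries for each pair of the 10 genes, red above 0 and blue below, in an order chosen after the values were seen. *Fos*, *Fosl2*, *Junb* and *Jund* are red among themselves, and *Atf3* is red with *Nr4a1* (0.79) and *Fosb* (0.60) and blue with *Jun* (−0.85).

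The libraries at the extremes differed from gene to gene. Control-tagged replicate 1 was the highest library in 3 genes (*Fos*, *Fosl2*, *Junb*), TK-deficient-tagged replicate 3 in 3 others (*Fosb*, *Atf3*, *Nr4a1*), and TK-deficient-tagged replicate 2 was the lowest in 4 (*Fos*, *Fosb*, *Fosl2*, *Egr1*). Control-tagged replicate 1 also stood out in some of the heat shock genes, whose proteins refold damaged proteins. *Hspa1a* and *Hspa1b*, near-identical copies between which reads cannot be assigned with certainty, were at 169 and 177 normalized CPM in it and at most at 38.2 and 39.3 in the other 7 libraries. *Dnajb1* was at 112 normalized CPM in it and at most at 68.3 elsewhere, and *Hsph1* at 215 and at most at 105. *Hspb1* (585 normalized CPM) and *Hspa8* (3051) were little above control-tagged replicate 3 (555 and 3038), so these genes did not stand out. Of the 6 heat shock genes, 0 were called between the groups by edgeR's quasi-likelihood test (0.00738% of all genes). At an unadjusted p under 0.05 there were 2 (*Hspa1a* and *Hspa1b*), beside 8.96% of all genes. The exact permutation test between the groups gave p = 0.343 for each. All 6 had a log2 fold change below 0 with control-tagged replicate 1 included. TK-deficient-tagged replicate 3 had the lowest sum of fibroblast markers (567 normalized CPM, others 883 to 1548) and of leukocyte markers (256 normalized CPM) and the highest of cardiomyocyte markers (66926 normalized CPM). The part of these differences in the levels of the 10 genes was not tested. Neither a sequencing batch nor the interval between death and freezing is given in the sources used here.

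Among the relatives of the 10 genes in the Batf, Maf, Egr, Nr4a, Atf and Fos families, 13 of 16 passed the filter. Of these, 0 of 13 were called by edgeR's quasi-likelihood test (0.00738% of all genes) or likelihood ratio test (0.391%). *Fosl1*, *Batf3* and *Egr4* did not pass, with at most 7, 16 and 0 counts per library. At an unadjusted p under 0.05 there was 1 of 13, where 8.96% of all genes had such a p. This was *Jdp2*, a repressor of AP-1, with overlapping groups and a log2 fold change of −0.32 (SE 0.13, unadjusted p = 0.0250 and FDR = 0.506 in the edgeR fit). *Nr4a3*, a paralog of *Nr4a1* chosen after its values were seen, spread from 15.3 to 51.2 normalized CPM, its lowest and highest library being those of *Atf3* and *Nr4a1*.

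Of 35 other immediate early genes, which encode phosphatases, RNA-binding proteins, Klf factors and secreted proteins among others, all were tested. Of these, 0 were called by edgeR's quasi-likelihood test, beside 0.00738% of all genes. At an unadjusted p under 0.05 there were 4 of 35 (3 lower and 1 higher), beside 8.96% of all genes, and this count was 1 without TK-deficient-tagged replicate 2 and 2 without control-tagged replicate 3 or 4. The median log2 fold change was −0.11, with 26 of 35 below 0, beside 50.3% of all genes. *Ctgf*, a matrix-associated growth factor gene, was at 239, 314, 409 and 438 normalized CPM in the control-tagged and 206, 129, 129 and 261 in the TK-deficient-tagged replicates 1 to 4. Its log2 fold change was −0.95 (SE 0.25, unadjusted p = 0.00244, FDR = 0.442), and it was called by DESeq2, by edgeR's likelihood ratio test and when genes of low counts were kept. The endothelial and mural marker sums given above also had a lower minimum and maximum in the TK-deficient-tagged libraries, and their part in the level of *Ctgf* was not tested. The others were *Ier3* (log2 fold change 0.51, unadjusted p = 0.0296), *Errfi1*, a brake on the EGF receptor (−0.47, unadjusted p = 0.0320), and *Rhob* (−0.29, unadjusted p = 0.0402), each with overlapping groups and an FDR of at least 0.521. The median SD of log2 normalized CPM within groups was 0.31 in this list, between that of the 10 factors and that of all genes.

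Upstream of these genes, among 27 activators and kinases such as *Srf* and *Creb1*, 0 of 27 were called by edgeR's quasi-likelihood test (0.00738% of all genes). At an unadjusted p under 0.05 there were 0 of 27, beside 8.96% of all genes. Their median log2 fold change was −0.03, and their median SD within groups was 0.14, below that of all genes. Among 14 feedback genes, most of which dampen MAP kinase signals or Egr activity, 0 of 14 were called by either edgeR test (0.00738% and 0.391% of all genes). Log2 fold changes were below 0 in 13 of 14 (50.3% of all genes), with a median of −0.12, and 1 gene had an unadjusted p under 0.05 (8.96% of all genes). This was *Spry1*, an inhibitor of receptor tyrosine kinase signals, with a log2 fold change of −0.45 (SE 0.17, unadjusted p = 0.0200, FDR = 0.495).

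The genes outside the list whose profile over the 8 libraries was most like the mean of the 10 standardized profiles were *H2-DMb2* (r = 0.967) and *H2-DMb1* (r = 0.962), near-identical genes of antigen presentation whose reads cannot be told apart with certainty. They were followed by *Ddx27* (0.946), *Ago2* (0.941), *F830016B08Rik* (0.918), *Btg2* (0.918), *Tmem39a* (0.911), *Zfx* (0.901), *Wdr3* (0.90) and *Prr7* (0.899). They were picked as the highest of 13542 genes over 8 libraries, so these r values are a description with no test. *Btg2*, an antiproliferative immediate early gene, was the only gene of the 35 above among these 10 nearest genes. Some of the 10 had few reads, so counting error is large in their profiles. *H2-DMb2* was at 0.621 to 1.95, *F830016B08Rik* at 0 to 3.82 and *Prr7* at 0.621 to 1.75 normalized CPM. The mean profile itself weighed the genes unevenly, with r from 0.90 for *Fos* and 0.89 for *Fosl2* down to 0.03 for *Atf3*. Over the 35 other immediate early genes the median r with this profile was 0.51, with 32 of 35 above 0. Over all genes the median was 0.02, with 7016 of 13542 above 0. The 6 heat shock genes had a median of 0.55 with 6 of 6 above 0, the 13 relatives 0.33, the 14 feedback genes 0.16 and the 27 upstream genes 0.05. Control-tagged replicate 1, which stood out in some heat shock genes, was also highest in the mean profile (0.71). Its part in these r values was not tested.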

How the data were processed

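RNA of the LVs of 8 mice, 4 per group, was sequenced. Per the labels and the methods, the authors trimmed reads with Trim Galore 0.4.4 (Phred cutoff 30), aligned them to GRCm38 with STAR 2.5.4b and counted them on GENCODE M16 with featureCounts (Rsubread 1.32.4). The authors deposited 1 table of raw counts per gene, and use of strand is not stated. The labels describe ribosomal RNA depletion and the methods poly-A selection.

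Genes reaching 1 CPM in 2 or more libraries were normalized with TMM factors (0.917 to 1.12) and tested with the quasi-likelihood test of edgeR 4.0.16 in R 4.3.3 over all 8 libraries, with no covariates. P-values were adjusted by Benjamini-Hochberg over 13542 genes, giving the FDR. The likelihood ratio test and thresholds are those of the authors. DESeq2 was version 1.42.0. Log2 values had a prior count of 2. At 11449137 to 16239670 counts per library, a gene at a CPM of 1 has a large counting error. Tested on simulated data of 13350 genes, with a 2-fold change set in 200, it recovered 91.5% of these and 5.67% of its calls were false. The common coefficient of variation in the fit of the real libraries was 15.1%. Over the 8 libraries the 10 factors varied by 11.9% (*Jund*) to 97.2% (*Fosb*). Recovery of a change at the spread of each of these 10 was not tested. P-values set the difference between the groups against the spread between these libraries. Labels do not say how mice relate to batches or litters, so a difference of genotype cannot be told apart from one of batch or litter.

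The 10 genes and the other lists were chosen with earlier results of these data known. Named genes are the 10 genes, list genes with an unadjusted p under 0.05, and the 10 genes nearest in profile. Alternatives were other tests, size factors and filters, a replicate block, another prior count and each library left out. Exon lengths and coordinates come from GENCODE M21, and promoters from RefSeq (GRCm38.p6). The groups given by the sample titles are the same 2 sets with the names exchanged. Correlations were computed in Python 3.11.15.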

Additional observations from a re-analysis of the deposited data

Results flagged for a closer look

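In 3 of the 52 groups of 4 libraries examined (26 named genes), 1 library lay far from the other 3 by Dixon's test, where chance flags about 1 group in 20. *Fos* in control-tagged replicate 1 was at 10.4 normalized CPM, with the other 3 control-tagged libraries between 4.57 and 5.52. *Nr4a1* in control-tagged replicate 2 was at 42.0 normalized CPM, against 85.1 to 88.2 in the other 3. *Zfx*, a zinc finger factor named for its likeness in profile, was at 14.1 normalized CPM in TK-deficient-tagged replicate 2, against 16.3 to 16.7 in the other 3.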

How the results depend on the processing

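Under all 15 alternatives of test, size factors, filter, block and libraries, 0 of the 10 genes were called, and the lowest FDR of any of them was 0.506. Few genes were called at all. The likelihood ratio test called 53, DESeq2 32, the fit without a filter 23, and each other alternative at most 3. A count of 0 among 10 therefore says little about these genes. Their median log2 fold change stayed between −0.16 and 0.05 as each library was left out. Signs turned for 7 genes, among them *Fosb* without TK-deficient-tagged replicate 3. When single libraries were dropped, log2 fold changes ran from −0.07 to 1.27 for *Fosb*, −0.11 to 0.08 for *Jun*, −0.22 to 0.17 for *Junb*, −0.04 to 0.11 for *Jund*, −0.36 to 0.17 for *Egr1*, −0.34 to 0.25 for *Atf3* and −0.29 to 0.03 for *Nr4a1*, while *Fos* (−0.87 to −0.21), *Fosl2* (−0.30 to −0.02) and *Egr2* (−0.80 to −0.20) stayed below 0. By an unadjusted p in edgeR's test, *Fos* passed 0.05 without TK-deficient-tagged replicate 1 and with the block, and *Fosb* without TK-deficient-tagged replicate 2. Other immediate early genes with an unadjusted p under 0.05 numbered 1 to 5 as libraries were left out, with 1 without TK-deficient-tagged replicate 2 and 2 without control-tagged replicate 3 or 4. The cause was not tested.

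The median correlation between the 10 genes ranged from 0.11 without TK-deficient-tagged replicate 2 to 0.39 without TK-deficient-tagged replicate 3, and was 0.36 with total counts. The median SD within groups ranged from 0.45 to 0.52 as libraries were left out and was 0.53 with total counts.

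Labels do not say whether replicate numbers pair the libraries. Same-numbered libraries correlated in their deviations from the group means by −0.029, 0.029, 0.343 and −0.0555, values that cannot exclude a pairing. With the replicate number as a block, 0 of 10 genes were called, against 1 of 13542 genes. *Atf3* had a log2 fold change of 0.04, and 5 of 35 other immediate early genes had an unadjusted p under 0.05. Depth limits *Fosb* and *Egr2*, with as few as 4 and 14 reads in a library.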
